A study of Homo sapiens with 6 samples.

Results

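Small nucleolar RNAs (snoRNAs) and small Cajal body RNAs (scaRNAs) were examined in the polyadenylated RNA of HEY cells, an ovarian cancer cell line, upon PQBP1 knockdown. The members were chosen by name and by level: gene symbols starting with SNORD, SNORA or SCARNA, with a mean of at least 0.3 FPKM over the 6 samples. FPKM is the number of fragments scaled to transcript length and to the mapped fragments of the sample. This rule selected 133 of the 318 rows of these names and of the 32679 rows in the gene table, namely 75 SNORD, 49 SNORA and 9 SCARNA genes. The 3 shNC samples, carrying a control hairpin and listed as untreated, were compared with 3 shPQBP1 samples, carrying an inducible hairpin against PQBP1 and given doxycycline at 1 µg/ml, all at day 3. The cells were stable lines made with lentivirus and selected with puromycin. Hairpin and doxycycline differ between the groups together and cannot be told apart.

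Most snoRNAs are cut out of the introns of host genes after splicing. SNORD genes encode box C/D snoRNAs, which guide 2′-O-methylation of ribosomal RNA by fibrillarin. SNORA genes encode box H/ACA snoRNAs, which guide pseudouridylation by dyskerin, and scaRNAs guide the same changes on spliceosomal RNAs in Cajal bodies. PQBP1 is a component of the spliceosome. Mature snoRNAs have no poly(A) tail, whereas the libraries were made from poly(A)-selected RNA. The values therefore cover what remained of these loci after that selection, and how much of it was mature snoRNA was not tested.

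PQBP1 itself was 7.18, 6.67 and 6.93 FPKM in shNC and 1.68, 1.72 and 1.44 FPKM in shPQBP1, so it fell by 2.04 on the log2 scale (standard error 0.10, limma, adjusted p = 0.00197). It was lower in 3 of 3 shPQBP1 samples. The carcinoma markers KRT7, KRT8 and KRT18 reached 52.8 to 94.6 FPKM and PAX8 12.3 to 24.1 FPKM. KRT19 lay between 1.19 and 2.1 FPKM and EPCAM between 0.79 and 1.13 FPKM. WT1 lay between 0.31 and 0.71 FPKM and MUC16 between 0 and 0.01 FPKM. Of the mesenchymal list, VIM ran from 1111.87 to 1342.76 FPKM and CDH2 from 20.34 to 24.32 FPKM. COL1A1, COL1A2, DCN and LUM stayed at or below 0.47 FPKM. Of 8 tested genes of the ovarian carcinoma list 1 passed an adjusted p under 0.05 in limma, beside 2.42% of all genes tested. This was mesothelin (MSLN), at 14.43, 13.98 and 11.96 FPKM in shNC and 23.08, 25.56 and 22.81 FPKM in shPQBP1. At an unadjusted p under 0.05 there were 4 (50%), beside 22.3% of all genes. Besides MSLN these were PAX8 and KRT19, with log2 fold changes of 0.53 and 0.40, and WT1, with -0.74. PTPRC, a leukocyte marker, was listed at 0 in every sample, and CD68, the only leukocyte list gene tested, ran from 9.12 to 21.16 FPKM. None of the mesenchymal and endothelial list genes tested passed, 0 of 3 and 0 of 1, with 0 and 1 at an unadjusted p under 0.05 in limma. The 133 RNAs made up 0.153% to 0.182% of the summed FPKM of all rows, and this share overlapped between the groups. The number of sequenced fragments is unknown.

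Sequences are shown first, 5′ to 3′ on the RNA's strand, from hg38 with GENCODE release 44 positions. SNORD58B, SNORD104 and SCARNA4 passed an adjusted p under 0.05 in limma, and SNORD58A, SNORD12C and SNORD6 did not. SCARNA10, which also passed, is not shown. Capitals mark the letters TGATGA within the first 20 bases and CTGA within the last 15 bases of box C/D RNAs, or ACA at 3 bases from the end of the others, since these short boxes define the classes. SNORD58B, the most abundant member, and its neighbour SNORD58A lie in introns 1 and 3 of RPL17, a ribosomal protein gene of the large subunit. SNORD104 lies in intron 1 of SNHG25 and SNORD12C in intron 1 of ZFAS1, both long non-coding RNA genes. SNORD6 lies inside TAF1D, which encodes a factor of RNA polymerase I, but outside its canonical transcript. SCARNA4 lies in intron 6 of KHDC4.
SNORD58B (chr18:49491664-49491729, minus strand): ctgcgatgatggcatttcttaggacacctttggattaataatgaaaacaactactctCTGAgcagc
SNORD58A (chr18:49491283-49491347, minus strand): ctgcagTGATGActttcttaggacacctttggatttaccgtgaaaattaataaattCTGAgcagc
SNORD104 (chr17:64146083-64146152, plus strand): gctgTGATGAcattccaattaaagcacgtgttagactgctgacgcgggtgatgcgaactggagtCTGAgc
SNORD12C (chr20:49278940-49279028, plus strand): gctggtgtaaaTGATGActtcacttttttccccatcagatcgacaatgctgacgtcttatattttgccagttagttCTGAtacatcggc
SNORD6 (chr11:93731502-93731574, minus strand): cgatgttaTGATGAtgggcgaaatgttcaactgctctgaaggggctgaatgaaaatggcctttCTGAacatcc
SCARNA4 (chr1:155925958-155926085, minus strand): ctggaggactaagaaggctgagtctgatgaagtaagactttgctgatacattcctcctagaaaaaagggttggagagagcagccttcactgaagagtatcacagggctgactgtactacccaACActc

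The class boxes were common in the members. TGATGA was found in the first 20 bases of 46 of 75 SNORD members (61.3%), and CTGA in the last 15 bases of 67 (89.3%). In the windows of the same length just before these genes the shares were 4.0% and 8.0%. SNORD58B holds CTGA but not the letters TGATGA in that window. Of the 49 SNORA members, 38 (77.6%) had ACA at 3 bases from the end, against 2.0% of the windows before them. The SNORD and SNORA rows under 0.3 FPKM had the boxes at 67.4%, 89.5% and 69.7%. All searches were made on the strand of the RNA only. Median lengths were 84 bases for SNORD, 134 for SNORA and 270 for SCARNA members.

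Levels were low for most of the 133 RNAs. Only 11 reached a mean of 10 FPKM, 67 lay between 1 and 10 FPKM, and 55 lay below 1 FPKM, with a median of 1.57 FPKM. The members just inside the threshold were SNORD60 and SNORD37, each at 0.3 FPKM, and SNORA46 at 0.302 FPKM. The rows just outside were SNORA80E at 0.285, SNORD116-2 at 0.280 and SNORD11B at 0.275 FPKM. The threshold was met in both groups by 109 members, in shNC alone by 15 and in shPQBP1 alone by 9. Those 24 members had to differ between the groups to be included, so their differences are given as a description.

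Of the 133 members, 4 changed at an adjusted p under 0.05 (limma on log2 of FPKM + 0.1, Benjamini-Hochberg over 14748 genes), which is 3.01% beside 2.42% of all genes tested. SNORD58B and SNORD104 were lower in shPQBP1, 2 of 133 beside 0.956% of all genes. SCARNA4 and SCARNA10 were higher, 2 of 133 beside 1.46%. Of the 49 SNORA members 0 passed, and 7 had an unadjusted p under 0.05 in limma. Among all members 25 had an unadjusted p under 0.05 (18.8%), beside 22.3% of all genes tested. SCARNA4 and SCARNA10 met the 0.3 FPKM in shPQBP1 alone and so had to differ. Among the 109 members that met it in both groups 2 were called, SNORD58B and SNORD104 (1.83%), beside 2.38% of the 14147 such genes.

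SNORD58B measured 85.94, 72.99 and 84.35 FPKM in shNC and 51.10, 50.91 and 48.20 FPKM in shPQBP1. Every shPQBP1 sample lay below every shNC sample, and the mean fell from 81.1 ± 7.06 to 50.1 ± 1.62 FPKM (SD, n = 3). On the log2 scale it fell by 0.69, with a standard error of 0.085 (limma, adjusted p = 0.0207; exact permutation p = 0.1, two-sided, the smallest that 3 against 3 samples can give). Its host RPL17 measured 137.28, 122.48 and 121.10 FPKM in shNC and 122.11, 121.73 and 118.56 FPKM in shPQBP1, with a log2 fold change of -0.069 (standard error 0.072) that did not pass (adjusted p = 0.584). Relative to RPL17 in the same sample, SNORD58B stood at 59.6% to 69.7% in shNC and 40.7% to 41.8% in shPQBP1, with no overlap. SNORD58A, from the same host, measured 2.51, 2.97 and 1.71 FPKM in shNC and 0.79, 1.80 and 3.91 FPKM in shPQBP1, so its groups overlapped (adjusted p = 0.703). SNORD58A and SNORD58B differed at 14 edits and were 78.8% identical, and the nearest annotated RNA to SNORD58B, named SNORD58, was 90.9% identical to it. SNORD58B also overlaps an antisense gene and an exon of some transcript of another gene on its strand, which may be its host. Fragments there therefore cannot be assigned with certainty. In bulk RNA, less of an RNA per cell and fewer cells that carry it cannot be told apart. The call on SNORD58B held without shNC 1 or shNC 2 and was lost without shNC 3 or any one shPQBP1 sample (adjusted p 0.0892 to 0.112), at log2 fold changes of -0.66 to -0.71. Over all genes, 357 were called with all samples, 389 without shNC 1 and 32 to 87 without any other sample.

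SNORD104 measured 11.83, 9.93 and 13.12 FPKM in shNC and 7.17, 6.45 and 5.90 FPKM in shPQBP1. The groups were apart, with means of 11.6 ± 1.6 and 6.51 ± 0.64 FPKM (SD, n = 3) and a fall by 0.82 on the log2 scale (standard error 0.13; limma adjusted p = 0.0371, exact permutation p = 0.1). Its host SNHG25 measured 1.37, 0.96 and 1.28 FPKM in shNC and 0.77, 0.63 and 0.24 FPKM in shPQBP1, and did not pass (log2 fold change -1.11, standard error 0.37, adjusted p = 0.164). SNORD104 stood at 863.5% to 1034% of SNHG25 in shNC and 931% to 2458% in shPQBP1, with overlap. This ratio rests on a host at 0.24 to 1.37 FPKM, far below RPL17. Whether SNORD104 followed its host was not tested. The annotated SNHG25 gene spans SNORD104, which overlaps no annotated exon of another gene, host included. How fragments there were shared between the pair was not tested. The call on SNORD104 was lost on leaving out any one of the 6 samples (adjusted p 0.0599 to 0.149).

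SCARNA4 was listed at 0 in the 3 shNC samples and at 1.05, 0.60 and 0.49 FPKM in shPQBP1 (limma, adjusted p = 0.0182). No fold is given against a group listed at 0. The table holds a second row for the same bases of chromosome 1, listed at 0 in shNC and at 0, 0.49 and 0.40 FPKM in shPQBP1, and added together the rows gave 1.05, 1.09 and 0.89 FPKM. KHDC4, the host, measured 9.37, 9.98 and 9.97 FPKM in shNC and 11.98, 11.12 and 11.19 FPKM in shPQBP1 (log2 fold change 0.22, adjusted p = 0.17). The call on SCARNA4 held without shNC 1 and was lost without each of the other samples (adjusted p 0.0571 to 0.0863). Its inclusion rests on the shPQBP1 samples alone.

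SCARNA10 measured 0.13, 0.12 and 0.06 FPKM in shNC and 0.48, 0.49 and 0.56 FPKM in shPQBP1, so the groups were apart at a low level (log2 fold change 1.6 on FPKM + 0.1, standard error 0.26, limma adjusted p = 0.0371). NCAPD2, its host and a condensin subunit gene, lay between 59.67 and 70.46 FPKM in all samples (log2 fold change -0.11, adjusted p = 0.414). Another annotated RNA overlaps SCARNA10, and fragments there cannot be assigned to either with certainty. The call on SCARNA10 was lost without any one of the 6 samples (adjusted p 0.0501 to 0.149).

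SNORD6 and SNORD12C came closest to the threshold without passing it and were picked after their values were seen. SNORD6 measured 2.03, 2.17 and 2.08 FPKM in shNC and 3.84, 2.99 and 4.38 FPKM in shPQBP1 (log2 fold change 0.79, standard error 0.15, limma adjusted p = 0.0578). SNORD12C measured 1.91, 2.11 and 2.27 FPKM in shNC and 0.61, 1.15 and 1.04 FPKM in shPQBP1 (log2 fold change -1.13, standard error 0.23, limma adjusted p = 0.0638). For both RNAs the groups did not overlap. ZFAS1, the host of SNORD12C, was 41.73, 36.83 and 32.36 FPKM in shNC and 27.07, 25.11 and 28.51 FPKM in shPQBP1 (adjusted p = 0.0949). TAF1D, the host of SNORD6, was 4.75, 8.85 and 8.49 FPKM in shNC and 10.2, 8.53 and 9.61 FPKM in shPQBP1 (limma adjusted p = 0.362). Relative to the host in the same sample, the groups of both RNAs overlapped. SNORD6 was called after a GC and length correction and SNORD12C under quantile normalization.

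**Figure D1:**
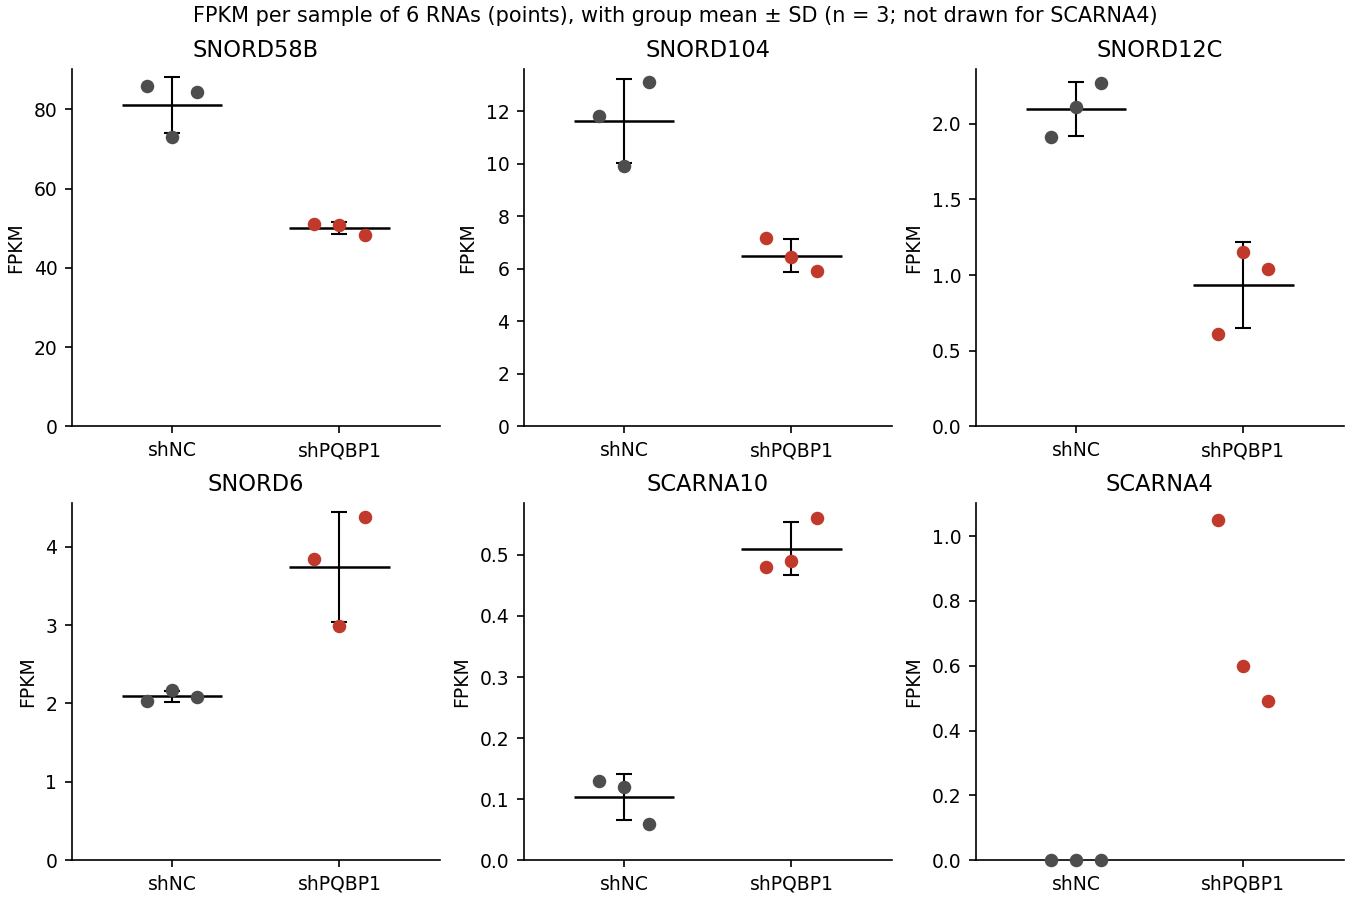
FPKM of 6 RNAs in each sample (points), with shNC in grey and shPQBP1 in red, and the mean ± SD of each group of 3 samples as bars except for SCARNA4, which is listed at 0 in shNC. In each of the 6 panels the groups are apart: SNORD58B, SNORD104 and SNORD12C lie lower and SNORD6, SCARNA10 and SCARNA4 higher in shPQBP1, the last at no more than 1.05 FPKM.

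When a fold above 2 and an unadjusted p below 0.05 were asked for together, 14 members passed (10.5%), beside 2.53% of all genes tested. Of the 133, 5 were higher, beside 1.5% of all genes, and 9 were lower beside 1.03%. Of these 14, 12 met 0.3 FPKM in 1 group only and so had to differ. Among the 109 members that met it in both groups, 2 passed (1.83%), beside 1.74% of the 14147 such genes. These were SNORD12C and SNORD62A. SNORD62A is identical over all 86 bases to SNORD62B, so fragments cannot be assigned to one of them, and the pair measured 0.93, 1.23 and 0.81 against 0.60, 0.14 and 0.41 FPKM (SNORD62A) and 3.23, 7.18 and 7.10 against 3.2, 3.72 and 4.50 FPKM (SNORD62B).

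The groups did not overlap for 23 members (17.3%), beside 32.2% of all genes tested. Of these, 9 were higher in shPQBP1, beside 16.6% of all genes, and 14 were lower, beside 15.6%. The median standard error of the log2 fold change was 0.39 over the members and 0.16 over all genes. Among members meeting the threshold in both groups, 14 (12.8%) did not overlap, beside 31.8% of such genes.

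The largest higher values among these 23, besides SCARNA4 and SCARNA10, were those of SNORD32A, SNORD116-6 and SNORA22B. SNORD32A and SNORD116-6 met 0.3 FPKM in shPQBP1 alone and so had to differ. SNORD32A, in an intron of RPL13A, measured 0.15, 0.18 and 0.16 FPKM in shNC and 6.88, 5.33 and 0.19 FPKM in shPQBP1, so its difference came from 2 of 3 samples (limma adjusted p = 0.2). Without shPQBP1 3 the adjusted p of SNORD32A was 0.0157. SNORD116-6, one of the tandem box C/D copies in SNHG14 at the Prader-Willi locus, measured 0, 0 and 0.37 FPKM in shNC and 1.10, 1.09 and 0.69 FPKM in shPQBP1 (adjusted p = 0.0918). Without shNC 3 the adjusted p of SNORD116-6 was 0.0299. For each of these RNAs the fit left out the sample nearest the other group. The fits were picked after the values were seen, so their limma p-values are a description only. Its nearest copy SNORD116-2, 99.0% identical and just under the threshold, measured 0, 0 and 0.5 FPKM in shNC and 0.67, 0 and 0.51 FPKM in shPQBP1, with overlap. SNORD116-4, 95.8% identical, also overlapped and measured 1.69, 0.12 and 2.73 FPKM in shNC and 2, 2 and 4.03 FPKM in shPQBP1.

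SNORA22B and SNORA22, near copies in CCT6A and its pseudogene CCT6P1, differed at 10 edits (92.8% identity) and had log2 fold changes of opposite sign, 2.60 and -1.07. SNORA22B measured 0.17, 0 and 0.40 FPKM in shNC and 1.37, 2.17 and 0.81 FPKM in shPQBP1 (limma adjusted p = 0.0927). SNORA22 measured 0.60, 2.03 and 0.72 FPKM in shNC and 0.55, 0.42 and 0.29 FPKM in shPQBP1 (adjusted p = 0.233). In each RNA the groups did not overlap, and neither passed the test. SNORA22B met 0.3 FPKM in shPQBP1 alone and so had to differ. Both are shown because fragments from their shared letters could be placed on either copy. A further copy, SNORA22C, is 98.5% identical to SNORA22, so such fragments could also be placed there.
SNORA22B (chr7:56055365-56055502, plus strand): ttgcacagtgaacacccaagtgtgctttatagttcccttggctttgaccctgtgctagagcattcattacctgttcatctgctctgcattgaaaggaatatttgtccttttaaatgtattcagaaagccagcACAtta
SNORA22 (chr7:65755526-65755659, plus strand): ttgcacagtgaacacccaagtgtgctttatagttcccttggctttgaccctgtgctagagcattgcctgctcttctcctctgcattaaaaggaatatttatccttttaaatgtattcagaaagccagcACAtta

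The largest lower values among the non-overlapping members were those of SNORD9, SNORA46, SNORD3B-1, SNORA71C and SNORD62A. All of these but SNORD62A met 0.3 FPKM in shNC alone and so had to differ. SNORD9, in intron 34 of CHD8, measured 0.44, 0.92 and 1.40 FPKM in shNC and 0.30, 0 and 0.11 FPKM in shPQBP1 (limma adjusted p = 0.114). SNORA46, in intron 25 of CNOT1, measured 0.24, 1.01 and 0.42 FPKM in shNC and 0, 0 and 0.14 FPKM in shPQBP1 (adjusted p = 0.113). SNORD3B-1, a copy of the U3 RNA of ribosomal RNA processing, measured 0.43, 0.89 and 0.64 FPKM in shNC and 0.20, 0.02 and 0.19 FPKM in shPQBP1 (adjusted p = 0.103). Its copy SNORD3A, 91.6% identical, measured 1.45, 0.93 and 0.51 FPKM in shNC and 0.18, 0.66 and 0.45 FPKM in shPQBP1, with overlap. SNORA71C, in intron 3 of SNHG17, measured 1.17, 0.50 and 0.89 FPKM in shNC and 0.38, 0.03 and 0.39 FPKM in shPQBP1 (adjusted p = 0.198). All 5 of these RNAs lay at or below 1.40 FPKM in every sample.

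Over all 133 members the median log2 fold change was -0.18, with 56 above and 77 below 0, beside 0.026 over all genes tested. The medians were -0.31 for SNORD (29 above, 46 below 0), -0.0031 for SNORA (24 above, 25 below) and -0.36 for the 9 SCARNA members (3 above, 6 below). After the trend on GC content and length was removed, the median over members was -0.049. Among members meeting the threshold in both groups the median was -0.13, with 47 above and 62 below 0. Members are not replicates, and no p is given for these medians.

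**Figure D2:**
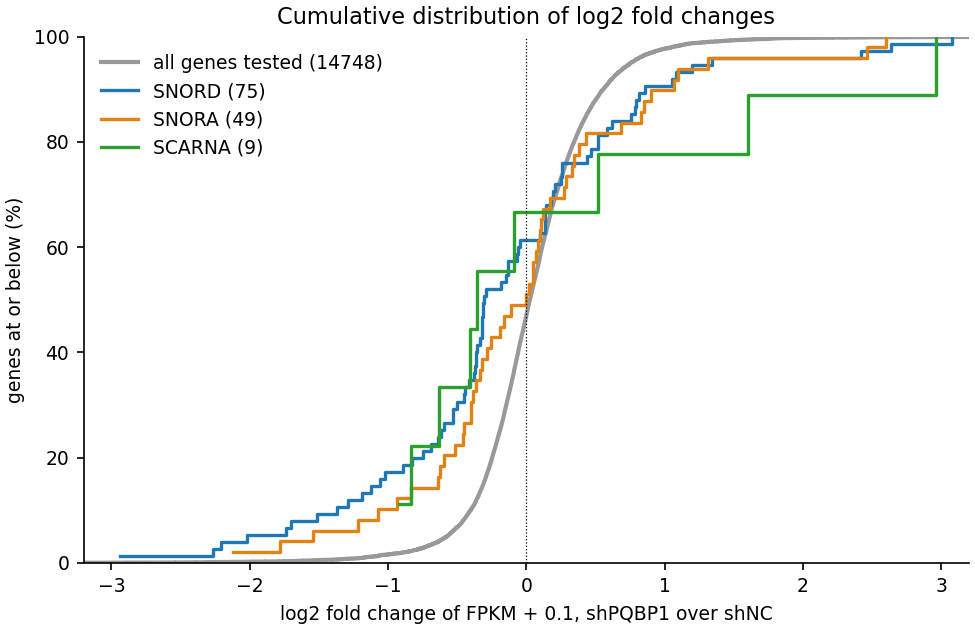
Cumulative share of genes (y axis, %) at or below each log2 fold change of FPKM + 0.1 in shPQBP1 over shNC (x axis), for all 14748 genes tested (grey), 75 SNORD, 49 SNORA and 9 SCARNA members. The SNORD line lies to the left of the grey line over its lower part, with a median of -0.31 against 0.026, and the lines of the small RNAs are wider than that of all genes. The SCARNA4 value, from a group listed at 0, depends on the added 0.1.

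Summed over its 75 members, the SNORD class measured 331.49, 327.43 and 358.83 FPKM in shNC and 266.6, 274.92 and 274.04 FPKM in shPQBP1. The groups did not overlap, and the shPQBP1 mean was 0.801 of the shNC mean (339 ± 17.1 and 272 ± 4.57 FPKM, SD, n = 3). SNORD58B gave part of this: without it the sums still did not overlap, at 258 ± 14.8 and 222 ± 5.52 FPKM, a ratio of 0.859. The total FPKM was itself lower in every shPQBP1 sample (278286 to 287423) than in every shNC sample (294970 to 318484). As a share of the total, the SNORD sum was 0.104% to 0.118% in shNC and 0.0943% to 0.0985% in shPQBP1, still apart, whereas without SNORD58B the shares overlapped, at 0.0771% to 0.0902% and 0.0762% to 0.0812%. The SNORA sum was 161 ± 20.8 FPKM in shNC and 158 ± 6.92 FPKM in shPQBP1, with overlap. The SCARNA sum was 18.48, 26.76 and 11.03 FPKM in shNC and 15.46, 11.14 and 15.09 FPKM in shPQBP1, also with overlap. No p is given for sums over chosen members.

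**Figure D3:**
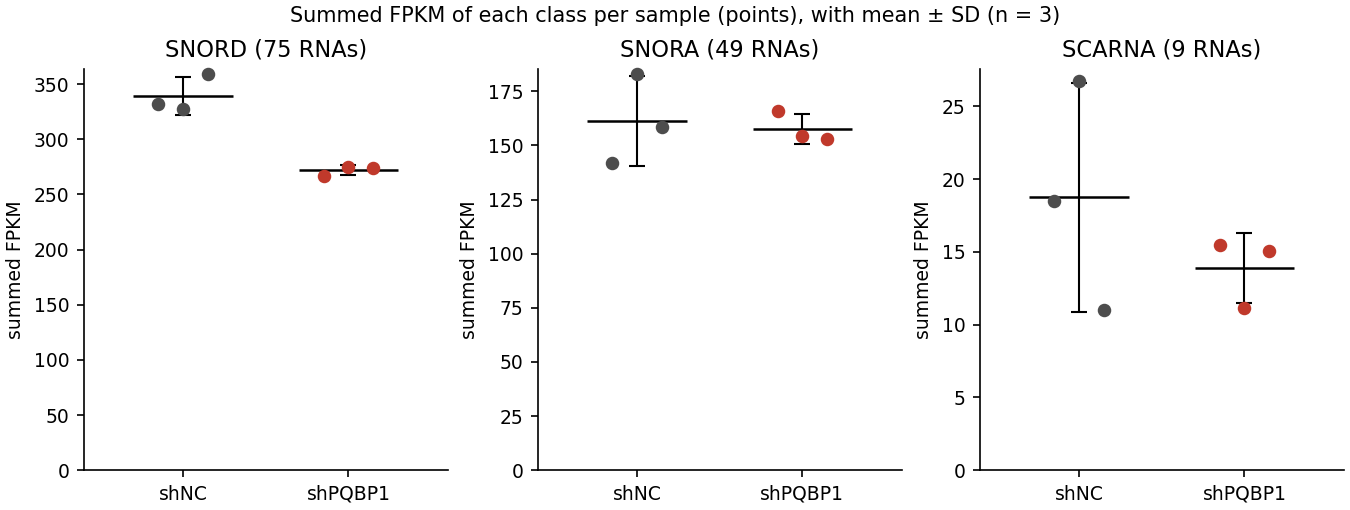
Summed FPKM of each class in each sample (points), with the mean ± SD of each group of 3 samples. The SNORD sums lie at 327 to 359 FPKM in shNC and 267 to 275 FPKM in shPQBP1, whereas the SNORA and SCARNA sums of the groups overlap.

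The most abundant members after SNORD58B showed smaller differences. SNORA4 and SNORA63B, both in introns of EIF4A2, measured 22.6 ± 3.44 and 13.7 ± 3.22 FPKM in shNC and 24.6 ± 3.96 and 13.6 ± 1.43 FPKM in shPQBP1 (SD, n = 3). SNORA67, in EIF4A1, measured 19.3 ± 3.98 and 14.5 ± 2.46 FPKM. SNORD26 and SNORD30, in SNHG1, measured 18.2 ± 3.73 and 15.5 ± 0.44 FPKM in shNC and 13.8 ± 1.37 and 11.6 ± 3.35 FPKM in shPQBP1. SNORD88B, in C19orf48P, measured 20.96, 16.34 and 15.66 FPKM in shNC and 14.05, 13.43 and 14.52 FPKM in shPQBP1, which did not overlap but did not pass (adjusted p = 0.207), and its log2 fold change turned from -0.32 to 0.070 after the GC and length correction. SNORD36A in RPL7A, SNORA18 in TAF1D and SNORD17 in SNX5 had overlapping groups, with log2 fold changes of 0.47, 0.34 and -0.44. None of these 9 RNAs had an adjusted p under 0.2 in limma, and SNORD88B and SNORD17 had unadjusted p-values of 0.0412 and 0.0419.

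Of the 9 SCARNA members, SCARNA22 and SCARNA12 were the most abundant. SCARNA22, in an intron of NSD2, measured 8.31, 11.88 and 7.06 FPKM in shNC and 5.24, 5.59 and 6.31 FPKM in shPQBP1, without overlap (log2 fold change -0.63, standard error 0.20, limma adjusted p = 0.146). SCARNA12, in PHB2, measured 7.81, 11.26 and 1.85 FPKM in shNC and 5.61, 2.51 and 5.50 FPKM in shPQBP1, so its shNC samples spread more than the groups differed (adjusted p = 0.778). SCARNA7, SCARNA8, SCARNA9, SCARNA13 and SCARNA21 had mean levels between 0.325 and 0.780 FPKM, overlapping groups and adjusted p-values from 0.241 to 0.941. SCARNA9 spans more than 1 annotated small RNA and had the widest range of them, from 0.06 to 1.57 FPKM within shPQBP1.

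Host genes held 130 of the 133 members on the same strand, in 90 hosts. By the canonical transcript of the host, 115 members were intronic, 13 lay inside the host gene outside that transcript, and 2 lay in an exon (SNORD118, the U8 RNA, in TMEM107 and SNORA50C in SNHG25). SNORD3A, SNORD3B-1 and SNORA11F had no host. The hosts were protein-coding for 98 members and long non-coding for 27. In ribosomal protein genes lay 27 members, not counting SNORA52 in RPLP2. The members' FPKM was below that of the host for all but 9 of 128 members whose host was tested, with a median of 4.59% of the host level.

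None of the 89 tested hosts was called, 0 of 89 in limma beside 2.42% of all genes, and 29 (32.6%) had an unadjusted p under 0.05, beside 22.3% of all genes. The members' log2 fold changes followed those of the hosts weakly: Spearman rho across 128 members was 0.12, from 0.049 to 0.18 on leaving out each sample, and 78 (60.9%) had the sign of their host. For the 53 members wholly inside 1 intron rho was 0.14. These are descriptions, since members in 1 host share its value and all come from the same 6 libraries.

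**Figure D4:**
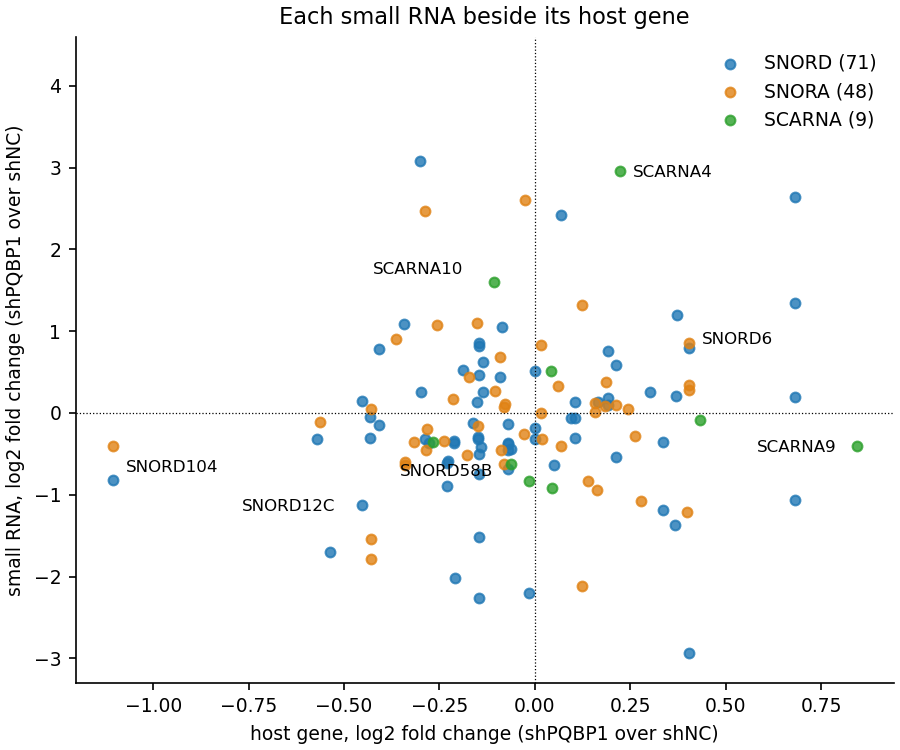
Log2 fold change (shPQBP1 over shNC) of each of 128 small RNAs (y axis) against that of its host gene (x axis), coloured by class. Hosts range from -1.11 to 0.84 while their small RNAs range from -2.94 to 3.08, and the points show little common slope (rho 0.12). SNORD104 sits with a host that is also lower, and SNORD58B with a host near 0.

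Members from 1 host had differing values. TAF1D held 5 members: SNORA8 (log2 fold change 0.85), SNORD6 (0.79), SNORA18 (0.34) and SNORA25 (0.29) had positive values, and SNORD5 had -2.94 with an adjusted p of 0.225. SNORD5 measured 3.42, 0.09 and 5.13 FPKM in shNC and 0.10, 0.07 and 0.13 FPKM in shPQBP1, so shNC 2 lay with the shPQBP1 samples. The 3 members of RPS12, namely SNORA33, SNORD100 and SNORD101, had -0.16, -0.29 and -0.32 beside -0.15 for the host. The 3 U14 copies in HSPA8, which assist 18S ribosomal RNA maturation, had 0.76 (SNORD14D), 0.18 (SNORD14C) and 0.10 (SNORD14E) beside 0.19 for the host, while the copy in RPS13, SNORD14A, had -0.048. Their identity to one another was 75% to 81.3%. SNORD14D measured 2.68, 6.38 and 4.65 FPKM in shNC and 6.71, 8.03 and 7.36 FPKM in shPQBP1, without overlap (limma adjusted p = 0.211). In RPL7A, SNORD36A and SNORD36B had 0.47 and 0.86, and SNORD36C and SNORD24 had -0.50 and -1.51. The values of SNORD36B and SNORD24 rested on shNC 2, where they measured 0.01 and 4.25 FPKM, and without it they were -0.74 and 0.076. Over the 27 members in ribosomal protein genes the median was -0.32, with 19 below and 8 above 0. SNORA52 in RPLP2 (-0.19) was not counted among them. Over the 27 members in long non-coding hosts the median was also -0.32, with 17 below and 10 above 0.

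A group of members switched between samples of 1 group. In 20 of 133 members (15%) the highest and lowest samples of a group differed 10 times or more on FPKM + 0.1, beside 0.91% of the other 14615 genes tested. Between 1 and 10 FPKM the shares were 20.9% of members and 0.911% of other genes. SNORD16, in RPL4, measured 0.02, 0.05 and 12.36 FPKM in shNC and 9.46, 0.01 and 0.01 FPKM in shPQBP1. SNORD27, in SNHG1, measured 11.16, 11.58 and 0.14 FPKM in shNC and 0.13, 10.91 and 9.34 FPKM in shPQBP1. In both RNAs each sample was either near 10 FPKM or near 0, with no order by group.

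SNORA57 measured 3.68, 0.14 and 2.71 FPKM in shNC and 3.69, 0.12 and 4.25 FPKM in shPQBP1, and SNORA77B 3.26, 0.05 and 4.21 FPKM in shNC and 3.74, 1.77 and 0.05 FPKM in shPQBP1. With SNORD16 and SNORD27, these were the 4 members that did so in both groups, while 10 did so in shNC alone and 6 in shPQBP1 alone. These RNAs were chosen after their values were seen. Of the 20, 18 overlap an annotated exon of some transcript of another gene, with transcripts of the host counted too. They are 24.7% of the 73 members with such an overlap, and the other 2 are 3.33% of the 60 without. How the transcript assembly shared fragments between overlapping models was not tested. None of the 4 called members was among the 20, 0 of 4, and SNORD32A was the only one of the 20 among the 23 members whose groups did not overlap. Without the 20, the SNORD sums in FPKM were 302, 297 and 313 FPKM in shNC and 239.5, 241.5 and 245 FPKM in shPQBP1, still apart.

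**Figure D5:**
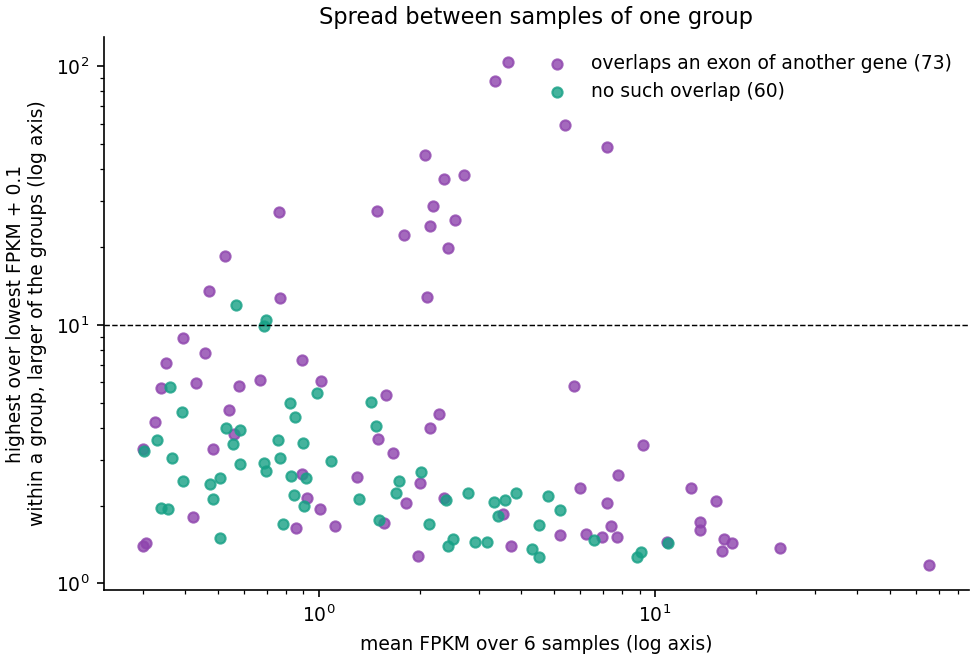
Highest over lowest FPKM + 0.1 among the 3 samples of a group, taking the larger of the groups (y axis, log), against mean FPKM (x axis, log) for the 133 members. The dashed line marks 10, and 18 of the 20 members on or above it overlap an exon of another gene, host included (purple).

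An annotated antisense gene overlaps 11 members, and without a known strand setting their reads cannot be told apart from its reads. Another annotated small RNA was at least 90% identical to 28 members.

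The protein partners were counted from lists of known components. Of 13 tested genes of box C/D snoRNA particles and their assembly 0 passed the adjusted test, with 5 (38.5%) at an unadjusted p under 0.05 in limma, beside 22.3% of all genes, and a median log2 fold change of -0.11. Fibrillarin (FBL), the methyltransferase, had -0.27 (adjusted p = 0.244), NOP56 -0.11, NOP58 0.34 and SNU13 -0.23. Of 6 box H/ACA genes 0 passed, with 0 at an unadjusted p under 0.05. Dyskerin (DKC1), the pseudouridine synthase, had -0.12 (adjusted p = 0.32), NHP2 -0.16, NOP10 -0.034 and GAR1 -0.069. NHP2 and NOP10 turned to 0.0021 and 0.061 after the GC and length correction and quantile normalization, respectively. Of 23 genes of intron lariat opening, trimming and decay 0 passed, with 4 at an unadjusted p under 0.05.

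Of 14 Cajal body and nucleolar genes 1 rose and 0 fell at the adjusted threshold, which 2.42% of all genes passed, and 3 (21.4%) had an unadjusted p under 0.05, beside 22.3% of all genes. These were NOLC1, which rose, and GEMIN4 (-0.49) and COIL, which had negative values. NOLC1, a chaperone of snoRNA particles that moves between nucleoli and Cajal bodies, measured 28.66, 22.86 and 23.73 FPKM in shNC and 52.22, 61.55 and 53.76 FPKM in shPQBP1. Every shPQBP1 sample lay above every shNC sample, with means of 25.1 ± 3.13 and 55.8 ± 5 FPKM (SD, n = 3) and a log2 fold change of 1.15 (standard error 0.12, limma adjusted p = 0.0128). Without shNC 3 or any one shPQBP1 sample its adjusted p was 0.0581 to 0.0738. Coilin (COIL), the scaffold of Cajal bodies, had -0.31 (adjusted p = 0.175), and WRAP53, which brings scaRNAs to them, had -0.17 (adjusted p = 0.372).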

How the data were processed

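Poly(A) RNA of 6 HEY cultures, described as biological replicates, was sequenced in paired ends. Per the labels and methods, the authors used HISAT2 (version 2.2.0) for alignment on hg38, SAMtools (version 1.9) for sorting, and StringTie (version 1.3.0) for FPKM per gene. The annotation release and strand setting are not given in the sources used here. The FPKM values were used as deposited, rounded to 2 decimals, and the depth is unknown. The authors' own fold changes, p-values and q-values (edgeR) were not used.

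Genes with a mean of at least 0.3 FPKM (14748) were compared on log2(FPKM + 0.1) with limma (version 3.58.1, R version 4.3.3; mean-variance trend, two-sided, Benjamini-Hochberg over all of them). Positions, hosts and sequences came from GENCODE release 44 on hg38, by Ensembl gene ID (32454 of 32679 rows matched), in Python (version 3.11.15). Identity is 1 minus the edit distance over the longer sequence. The code was tested on simulated data. Members, lists and naming rule were chosen with earlier results of these data known. Named are PQBP1, the called members, the 10 most abundant, the 5 largest differences each way among non-overlapping members, all SCARNA members, members and rows at the threshold, their hosts, called list genes and core proteins. Not every sequence examined is reported here.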

Additional observations from a re-analysis of the deposited data

How the results depend on the processing

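PQBP1 was lower under every alternative run (log2 fold change -1.60 to -2.10, leaving out 1 sample -1.96 to -2.08), past the threshold in all but the fit with the replicate number as a block (-2.04, adjusted p = 0.091). In that block fit 0 of all genes and 0 members were called by limma, with 29 members at an unadjusted p under 0.05. The deviations of same-numbered samples had r of -0.145, -0.106 and -0.0002, and those of differently numbered samples -0.106 to 0.178. Whether same-numbered samples were cultured or processed together cannot be told from these values. The 4 called members of the main fit stood beside 357 called genes of 14748. After the GC and length correction 6 were called, with SNORA55 and SNORD6 added, beside 833 of 14685 genes. Quantile normalization gave 4, with SNORD12C in place of SCARNA10, beside 414 genes. With a pseudocount of 0.01 there were 3, without SCARNA10. In place of 4 called members there were 2 with all genes above 0 in at least 1 sample tested, beside 190 of 30717 genes. There were 2 at a mean of at least 1 FPKM (78 members), beside 332 of 11413 genes. With members overlapping an exon of another gene, host included, left out, there were 2. On leaving out 1 sample there were 0 to 3, of which 0 to 2 were among the 4. Those kept were 2 without shNC 1, 1 without shNC 2 and 0 in the other fits. Over all genes 389 were called without shNC 1 and 32 to 87 without any other sample, so calls were lost across the table. In place of 14 at a fold over 2 there were 2 at a mean of at least 1 FPKM, 3 with a pseudocount of 1 and 8 without exon overlaps, and 12 to 18 on leaving out 1 sample. In place of 23 without overlap there were 13 at a mean of at least 1 FPKM, and 12 without exon overlaps, and 32 to 43 on leaving out 1 sample, where fewer samples make separation easier. For the counts at a fold over 2 and those without overlap, the shares over all genes under these settings are not given here. Neither set of counts is therefore read as a result about the members. The median over members was -0.049 after GC and length correction, -0.28 without the 20 switching members (added after seeing the data), and -0.25 to -0.089 on leaving out 1 sample. The log2 ratio of the SNORA sums ran from -0.11 to 0.072 on leaving out 1 sample. As a share of the total FPKM of each sample, an alternative added after seeing the data, the log2 ratio was -0.21 for the SNORD sums and 0.077 for the SNORA sums. Signs turned for SNORD88B (0.070), SCARNA8 (0.069) and NHP2 (0.0021) after the GC and length correction, for SNORA63B (-0.012) and NOP10 (0.061) under quantile normalization, and on leaving out 1 sample for SNORA4 (-0.012 to 0.26), SNORA63B (-0.17 to 0.17), SNORA18 (-0.035 to 0.58), SCARNA12 (-1.12 to 0.15), SCARNA8 (-0.55 to 0.45), SCARNA9 (-1.21 to 0.49) and NOP10 (-0.096 to 0.057). The cause was not tested. Unknown depth leaves counting error for the many values under 1 FPKM unquantified.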
